A study of Bos taurus with 111 samples.

Results

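The genes described here are SLC27A6 (ENSBTAG00000004860) and ACSM1 (ENSBTAG00000001417), 2 of the 24616 genes counted in muscle biopsies of beef steers. They were chosen by their place in fatty acid handling, uptake into the cell for SLC27A6 and activation for ACSM1, and not by a threshold on these counts. However, the study had itself placed SLC27A6 on its list for HF-ZG and ACSM1 on its list for CH-H2 from these same libraries, so their values in those comparisons are not independent evidence of a difference. Their levels were read as counts per 1000000 reads on genes of the library (CPM), from the reverse-strand counts. The counts give no coordinates, so no position is given.

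SLC27A6 encodes a member of the solute carrier 27 family of fatty acid transport proteins, which bring long chain fatty acids into cells and can couple them to coenzyme A. ACSM1 encodes a mitochondrial acyl-CoA synthetase that attaches coenzyme A to medium chain fatty acids, the step that commits them to oxidation or to conjugation. Enzymes of the ACSM family are best known from liver and kidney, whereas fatty acid uptake in muscle is usually credited to other carriers.

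Steers of the breeds Charolais (CH) and Holstein-Friesian (HF) were ranked for residual feed intake (RFI), the intake left over after body size and gain, and per the labels also a change in lumbar BF, are accounted for. Biopsies of M. longissimus thoracis et lumborum were taken from low RFI (L-RFI) and high RFI (H-RFI) steers at the end of each of 3 feeding phases of 70 days. In H1 and H2 the steers had concentrates to appetite with a limited amount of grass silage, and in ZG, which lay between them, they had zero-grazed grass. The labels number H1, ZG and H2 as phases 1, 3 and 4, whereas the study describes 3 phases. Whether a further phase lay between H1 and ZG is not known. At the start of H1, ZG and H2 the mean weight was 395 kg, 519 kg and 675 kg in CH and 294 kg, 441 kg and 611 kg in HF. The mean age at the start of H1 was 283 days in CH and 306 days in HF. All steers of a breed passed through the phases in this order, so diet, age and weight cannot be told apart between phases, and breed cannot be told apart from the weight and age that came with it.

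Of 111 libraries from 83 steers, 104 libraries from 77 steers were kept, with 7 to 11 in each group of breed, phase and RFI class. The kept libraries held 2201765 to 52552057 reads on genes, with a median of 15852125. A count of 3 was taken as the floor of a library, which is 0.189 CPM at the median depth and 1.36 CPM at the lowest. Left out were 6 libraries under 1000000 reads and the library labelled steer 571 in ZG (CH, H-RFI). In that library CSRP3, a muscle LIM protein, stood at 0.145 CPM against 13.8 to 2406 CPM in the kept libraries, and ALB, the plasma albumin made by liver, stood at 101449 CPM against 14.6 to 8576 CPM. CSRP3 was chosen after its values were seen, and 0 of the 10 myofibre markers listed could be matched. MYH6, a myosin gene on the list of heart and epithelium markers, stood at 0.507 CPM in that library, against 83.9 to 690 CPM in the kept ones. The muscle label of that library was checked on CSRP3 and MYH6 alone. Both members were high there, at 1547 CPM for ACSM1 and 46.7 CPM for SLC27A6.

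Both members were low in muscle. SLC27A6 ranged from 0 to 25.2 CPM over the kept libraries with a median of 3.25 CPM, and ACSM1 from 0.347 to 112 CPM with a median of 2.75 CPM. SLC27A6 was under 1 CPM in 21 libraries and had no read in 1, whereas ACSM1 was under 1 CPM in 10 and had reads in all 104. Since these are bulk biopsies, a lower level from fewer cells of a type cannot be told apart from one with less RNA per cell. The median count behind a value was 55 reads for SLC27A6 and 46.5 for ACSM1.

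**Figure D1:**
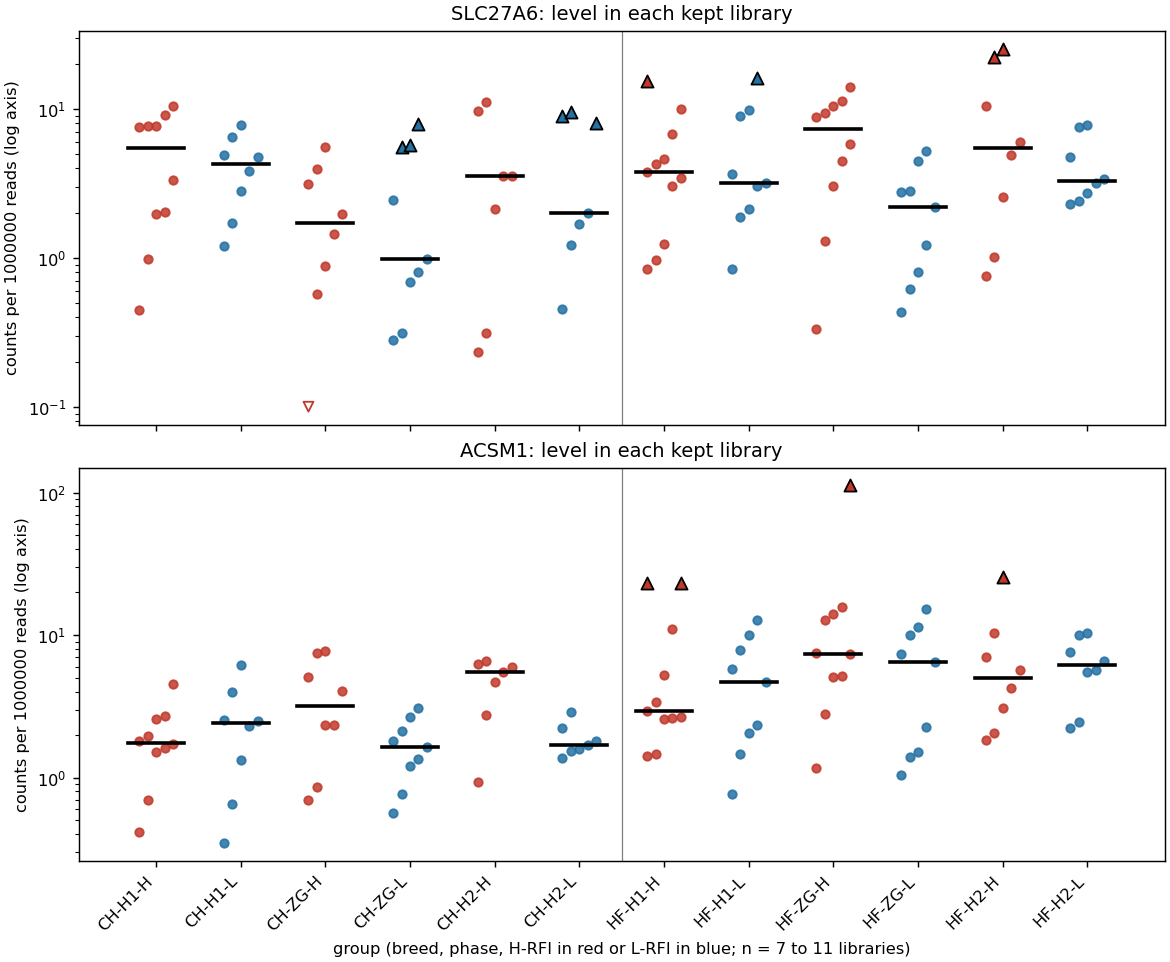
Level of SLC27A6 (top) and ACSM1 (bottom) in every kept library, in CPM on a log axis, by breed, phase and RFI class, with the median of each group as a bar. Triangles mark libraries at 4 times the median of their group or more, and the open triangle at the bottom stands for the library with 0 reads, drawn at 0.1 so that it fits the axis. ACSM1 passes 20 CPM in 4 HF libraries and in no CH library, and SLC27A6 differs more within groups than between their medians.

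The order of the group medians differed between the genes. For ACSM1, HF-ZG H-RFI stood highest at 7.42 CPM, followed by HF-ZG L-RFI at 6.43 CPM and HF-H2 L-RFI at 6.15 CPM, and the lowest were CH-H2 L-RFI at 1.70 CPM and CH-ZG L-RFI at 1.63 CPM. The order was led by HF groups, and CH-H2 H-RFI at 5.53 CPM was the only CH group among the leading 6. For SLC27A6, HF-ZG H-RFI was again highest at 7.30 CPM, then came CH-H1 H-RFI at 5.46 CPM and HF-H2 H-RFI at 5.45 CPM, and CH-ZG H-RFI at 1.70 CPM and CH-ZG L-RFI at 0.981 CPM were lowest. In both orders the ranges of all neighbouring groups overlapped, so no single step exceeded the spread between steers.

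ACSM1 had a lower median in CH than in HF muscle in each phase. In H1 the 18 CH libraries lay between 0.347 and 6.15 CPM (median 1.87 CPM) and the 20 HF libraries between 0.763 and 23.3 CPM (median 3.18 CPM). In ZG the 17 CH libraries ran from 0.562 to 7.67 CPM (median 2.11 CPM) and the 19 HF libraries from 1.04 to 112 CPM (median 7.37 CPM). In H2 the 14 CH libraries ran from 0.935 to 6.58 CPM (median 2.496 CPM) and the 16 HF libraries from 1.84 to 25.7 CPM (median 5.70 CPM). The breeds overlapped in every phase, but 17 of the 55 HF libraries lay above the highest CH library, and 43 of the 49 CH libraries lay below the HF median of 5.53 CPM.

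The breeds were compared in 1 limma voom model of all kept libraries, with RFI class as a term and the steer as a block. ACSM1 was lower in CH by 2.18-fold in H1 (log2 fold change -1.13, SE 0.42, adjusted p = 0.369), by 2.37-fold in ZG (-1.24, SE 0.42, adjusted p = 0.105) and by 2.29-fold in H2 (-1.19, SE 0.47, adjusted p = 0.381). A gene was called at an adjusted p under 0.1 with a fold change above 1.5, which 0.262% of genes met in H1, 1.69% in ZG and 0.223% in H2, and neither member met it in any phase. The 3 estimates lay within 1 SE of each other, and the breed by phase interaction gave ACSM1 an adjusted p of 0.997 in limma voom. That interaction called 0% of genes, with 547 genes at an unadjusted p under 0.05, and 1 gene called by edgeR's quasi-likelihood test.

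The mean difference over the 3 phases was therefore taken, a contrast chosen after the data were seen. ACSM1 averaged 2.67 ± 1.94 CPM (SD, n = 49) in CH and 8.70 ± 15.3 CPM (SD, n = 55) in HF libraries, and the model put it 2.28-fold lower in CH (log2 fold change -1.19, SE 0.26, limma voom adjusted p = 0.00199). It was 1 of 145 genes called, or 1.41% of those tested, and 1.22% were called as lower in CH. With 1 mean value per steer, the difference on the log2(CPM + 0.5) scale was -1.11 between 35 CH and 42 HF steers, with p = 2e-05 in a two-sided permutation test, the smallest that its 100000 resamples can give. Without the 3 libraries at 1000 CPM of ALB or more, the difference was -1.02 (limma voom adjusted p = 0.00524), where 1.17% of genes were called.

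Genes of fat cells and of fat synthesis differed between the breeds in the same direction. Of the other 13 uptake genes on a fixed list, FABP4, the fatty acid binding protein of adipocytes, was the only one that could be matched to an identifier, since names came from the study's own lists of RFI genes. It was lower in CH by 1.62 on the log2 scale (SE 0.32, limma voom adjusted p = 0.000588). The fat droplet protein gene CIDEC (-1.21) and TRARG1 (-1.36), a partner of glucose transporter traffic, were lower too, which makes 3 of the 3 adipocyte markers matched among 12 listed. The fat synthesis genes THRSP (-1.86), ELOVL6 (-1.38) and FASN (-0.66) were all called lower in CH, 3 of 3 matched among 8 listed. The median over all genes was -0.01 for this contrast.

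Leukocyte genes were also lower in CH, and plasma protein genes leaned the same way, though most fell just short of the threshold. Of the 8 leukocyte markers, 6 passed the filter on low counts and 6 were called lower, with CSF3R, a receptor of the neutrophil growth factor, at -1.34. ALB was at -0.83 (adjusted p = 0.105 in limma voom), and of the 6 plasma protein genes matched, FGB, a fibrinogen chain, was the 1 called, at -0.85. All 6 lay between -0.88 (FGG) and -0.77 (AHSG), with limma voom adjusted p from 0.0974 (FGB) to 0.144 (AHSG). The cardiac myosin gene MYH6 was at -0.09 and did not pass.

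The breed difference of ACSM1 shrank when the level of these genes was put into the model, in fits added after the data were seen. With the ALB level of each library as a covariate it was -0.64 (SE 0.18, limma voom adjusted p = 0.0224). With the summed level of FABP4, CIDEC and TRARG1 as a covariate it was -0.40 (SE 0.22, adjusted p = 0.611) and no longer called. That fit called 0.136% of all genes, against 1.1% with ALB and 1.41% with neither, so the lost call was not particular to ACSM1. The summed level of the 3 genes had a median of 4.22 CPM in CH-H1, 3.08 CPM in CH-ZG and 9.47 CPM in CH-H2, against 9.20 CPM, 28.2 CPM and 32.5 CPM in the HF phases. The part of fat cells in the ACSM1 difference was not tested beyond these fits.

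**Figure D2:**
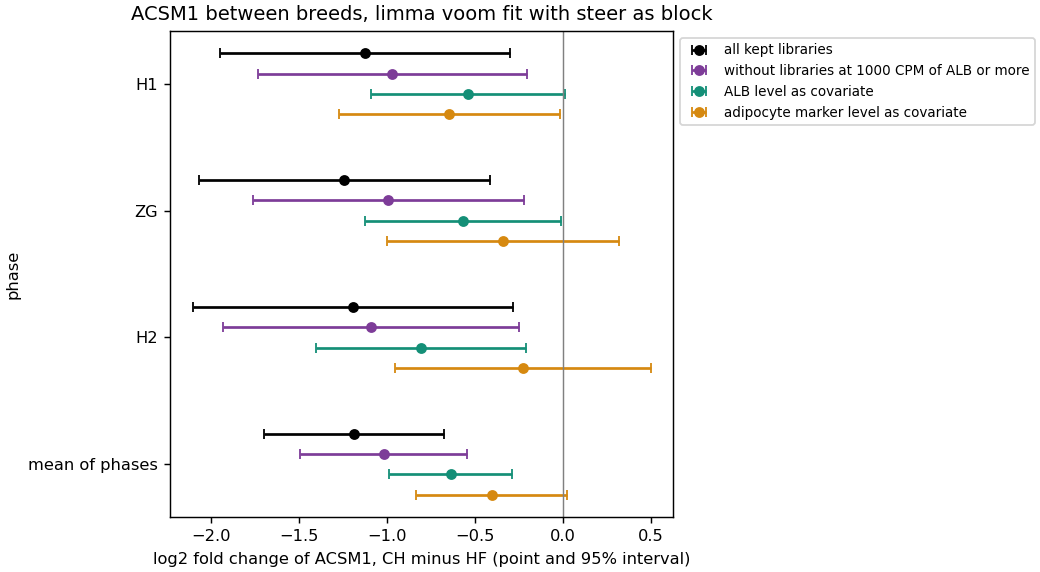
Log2 fold change of ACSM1, CH minus HF, in each phase and as the mean of the phases, with 95% intervals, from the limma voom model alone, without the 3 libraries rich in ALB, and with ALB or the summed adipocyte markers as a covariate. All points lie below 0, and the mean of the phases moves from -1.19 to -0.40 with the adipocyte markers in the model.

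SLC27A6 was not called between the breeds. In H1, CH libraries ran from 0.443 to 10.5 CPM (median 4.28 CPM) and HF libraries from 0.838 to 16.1 CPM (median 3.53 CPM), and the difference was 0.04 on the log2 scale (95% interval -0.68 to 0.75, limma voom adjusted p = 1.00). In ZG the CH libraries reached from 0 to 7.87 CPM (median 1.44 CPM) and the HF libraries from 0.334 to 13.9 CPM (median 3.05 CPM), a difference of -0.61 (95% interval -1.41 to 0.20, adjusted p = 0.459). In H2 the CH libraries had 0.233 to 11.1 CPM (median 2.82 CPM) and the HF libraries 0.757 to 25.2 CPM (median 4.07 CPM), a difference of -0.82 (95% interval -1.66 to 0.02, adjusted p = 0.641). The breeds shared almost their whole range, with 6 of 55 HF libraries above the highest CH library. Over the 3 phases the difference was -0.46 (SE 0.24, adjusted p = 0.306), and the permutation test over steers gave p = 0.0597 for a difference of -0.50. An interaction of breed and phase was not called for SLC27A6 either (limma voom adjusted p = 0.935).

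ACSM1 varied with plasma protein transcripts. Across the 104 kept libraries, as deviations from the group means, Spearman's rho of ACSM1 with ALB was 0.76, with FGB 0.77, with FGG, another fibrinogen chain, 0.77, with CP, the copper carrier ceruloplasmin, 0.77 and with HPX, the heme carrier hemopexin, 0.76. All 104 values come from the same libraries and share their depth. The closest genes were the unnamed ENSBTAG00000000442 (0.91) and ENSBTAG00000038323 (0.89), and PCK2, the mitochondrial enzyme that makes phosphoenolpyruvate, was the fourth of 10290 genes at 0.80. FABP4 and CIDEC followed at 0.65 each. In all, 121 genes had a rho above 0.5 with ACSM1 and 0 had one below -0.5.

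The highest ACSM1 values lay in libraries rich in ALB. Steer 5616 (HF-ZG, H-RFI) had 112 CPM of ACSM1 and 8576 CPM of ALB, steer 5588 (HF-H2, H-RFI) had 25.7 CPM and 2056 CPM, and steer 2069 (HF-H1, H-RFI) had 23.3 CPM and 1223 CPM. In these 3 libraries, the only kept ones at 1000 CPM of ALB or more, there were 1.25 to 1.91 reads of ACSM1 for every 100 of ALB, against 1.52 in the left-out library labelled steer 571. The other kept libraries had 1.61 to 65.3 reads for every 100 of ALB, with a median of 3.33. Steer 5613 (HF-H1, H-RFI), at 23.3 CPM, was the exception among the 4 highest, with 10.5 reads for every 100 of ALB, 98.5 CPM of FABP4 and 42.2 CPM of CIDEC. Whether the ACSM1 reads in muscle biopsies have the same origin as those of plasma protein genes was not tested.

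**Figure D3:**
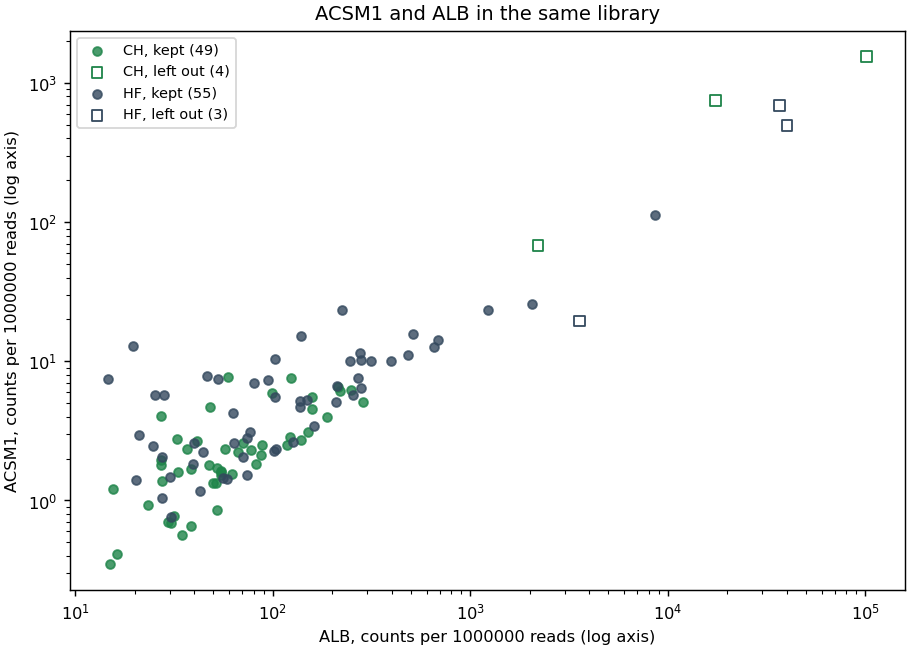
ACSM1 against ALB in the same library, both in CPM on log axes, for CH and HF libraries kept (filled circles) and left out (open squares; 1 left-out library with no ACSM1 read is not drawn). The 3 kept libraries at 1000 CPM of ALB or more hold 3 of the 4 highest ACSM1 values, and libraries with little ALB scatter widely, up to 65.3 ACSM1 reads for every 100 of ALB.

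Between phases, ACSM1 was higher at the end of the second concentrate phase than at the end of the first in HF steers. From H1 to H2 its HF median went from 3.18 to 5.70 CPM with overlapping ranges, and the model gave a 1.85-fold rise (log2 fold change 0.89, SE 0.39, limma voom adjusted p = 0.0872). This was the only phase contrast in which a member was called, and 16.3% of all genes were called in it, 2.58% as higher in H2. The call was lost without the steer block (0.85, adjusted p = 0.123) and in edgeR's quasi-likelihood test (0.43, adjusted p = 0.475). The 5 HF steers sampled in both phases had 2.65 and 3.08, 11.02 and 6.601, 1.47 and 4.24, 9.98 and 10.00, and 1.45 and 2.47 CPM in H1 and H2, higher in H2 in 4 of 5. Their mean difference on the log2(CPM + 0.5) scale was 0.27, with p = 0.438 in an exact sign flip test that cannot go below 0.0625.

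The adipocyte markers rose in the same contrast. FABP4 (log2 fold change 2.11), TRARG1 (2.32) and CIDEC (2.43), 3 of 3 matched, and THRSP (2.09) among the 3 fat synthesis genes were called higher in H2 than in H1 of HF, whereas ALB was at 0.05. With the summed adipocyte markers as a covariate, ACSM1 went to -0.17 (limma voom adjusted p = 0.732), and with ALB as a covariate it was 0.92 (adjusted p = 0.00769). Of all genes, 15.1% and 15.5% were called in these fits.

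In the other phase contrasts ACSM1 was not called. In CH it was at 0.61 for ZG against H1, 0.21 for H2 against ZG and 0.82 for H2 against H1, all positive on the log2 scale, where 2.4%, 1.11% and 2.72% of genes were called. The HF values were 0.73 for ZG against H1 and 0.16 for H2 against ZG, where 0.69% and 7.01% of genes were called. All 5 CH steers with libraries in both ZG and H2 had less ACSM1 in H2, by 0.54 on the log2(CPM + 0.5) scale on average, against the sign of the model's estimate. The exact sign flip test gave p = 0.0625 there, the smallest it can give with 5 steers, and an adjusted p of 0.75 over the 12 such tests.

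SLC27A6 had its lowest CH median in ZG. Its CH medians were 4.28 CPM in H1, 1.44 CPM in ZG and 2.82 CPM in H2, and 8 of 17 CH-ZG libraries lay under 1 CPM against 2 of 18 in CH-H1. The ranges overlapped, and ZG against H1 was at -0.85 (SE 0.40, limma voom adjusted p = 0.201), not called. In HF the largest phase difference was 0.84 for H2 against ZG (SE 0.38, adjusted p = 0.150), not called. The share of reads that fell on no gene or on several had a median of 22.6% among CH steers in H1 against 18.9% in ZG, and of 21.8% among HF steers in ZG against 17.7% in H2. With that share as a covariate, ZG against H1 in CH was at -0.61 (adjusted p = 0.523), and in HF the rises from ZG to H2 (1.03, adjusted p = 0.0741) and from H1 to H2 (1.05, adjusted p = 0.0578) passed the test. Of all genes, 4.45% and 5.79% were called in these HF contrasts, 49 and 85 genes of them as higher in H2.

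Steers sampled more than once did not hold a fixed level of either gene. Among 25 such steers, the highest of a steer's libraries exceeded its lowest by a median of 2.67 times for SLC27A6 and 2.25 times for ACSM1, and by 4 times or more in 9 and 6 steers. Some of the 9 ratios of SLC27A6 rest on a lowest value at or under the floor of 3 reads. These were steer 856 with 1 read in H2, steer 1492 with 2 in ZG and steer 2064 with 3 in ZG. Steer 1811 (HF, H-RFI in both phases) went from 15.3 CPM of SLC27A6 in H1 to 0.757 CPM in H2, while its ACSM1 was 2.65 and 3.08 CPM. Steer 5613 (HF, H-RFI in both) went from 23.3 CPM of ACSM1 in H1 to 1.17 CPM in ZG, while its SLC27A6 was 3.43 and 3.05 CPM. The large swings thus fell in different steers for the 2 genes. Steer 5616, at 112 CPM of ACSM1, had no second library, and steer 2069, also high in H1, was again high in ZG at 12.8 CPM, there with 19.6 CPM of ALB.

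**Figure D4:**
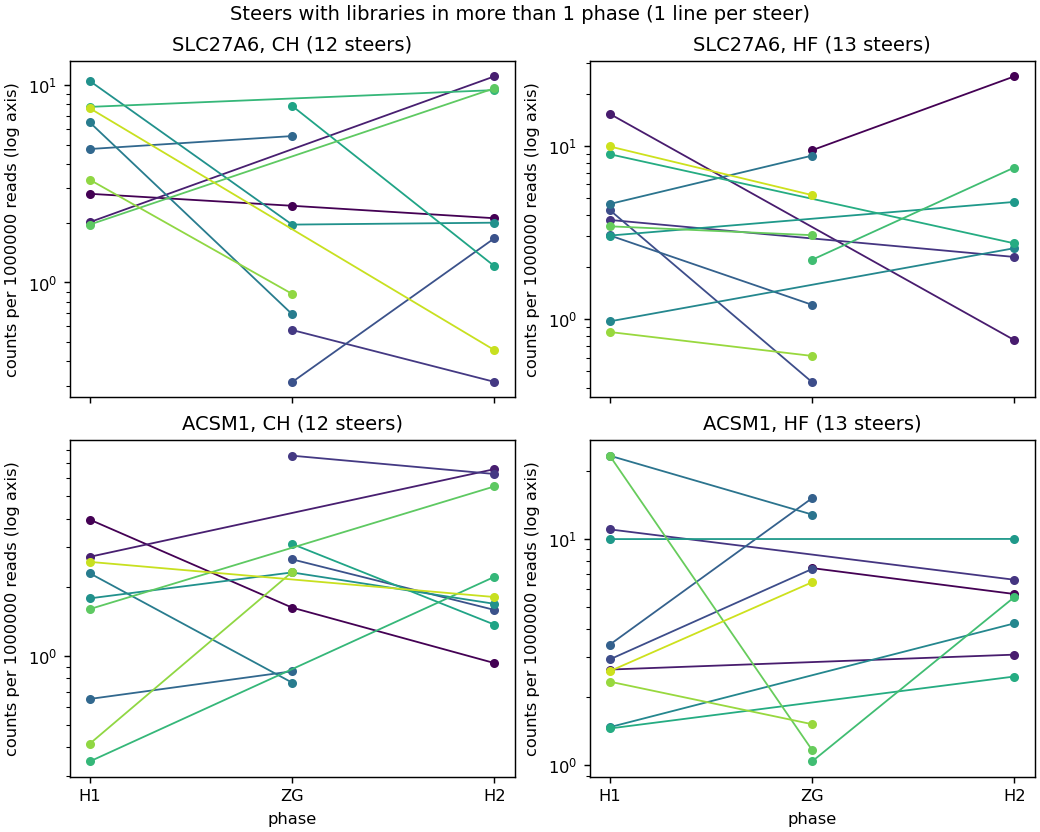
SLC27A6 (top) and ACSM1 (bottom) in the 12 CH and 13 HF steers with kept libraries in more than 1 phase, in CPM on a log axis, 1 line per steer. Lines cross in every panel, and no phase is highest in all steers.

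Between RFI classes, neither member was called in any of the 6 comparisons of breed and phase. By edgeR's quasi-likelihood test, 0% of genes were called in each. At an unadjusted p under 0.05 there were 216 (2.04%), 79 (0.804%) and 89 (0.884%) genes among CH steers in the H1, ZG and H2 phases. Among HF steers the same numbers were 317 (2.93%), 1228 (11.6%) and 72 (0.725%). At most 2 genes in a comparison were called by edgeR's exact test or DESeq2 and 0 by limma voom, and none of them was a member. The study, by edgeR's exact test with the same limits, called more genes in each comparison. SLC27A6, as lower in L-RFI steers of HF-ZG, was among them. The reason for this gap was not tested.

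ACSM1 in CH-H2 was the member with the smallest p. The 7 H-RFI steers had 0.935, 2.77, 4.66, 5.53, 5.97, 6.27 and 6.58 CPM, and the 7 L-RFI steers had 1.38, 1.54, 1.596, 1.70, 1.82, 2.23 and 2.86 CPM. The groups overlapped through the H-RFI steers 1100 and 367, and the other 5 H-RFI steers lay above every L-RFI steer. The model put L-RFI steers 2.79-fold lower (log2 fold change -1.48, SE 0.41, unadjusted p = 0.00223, adjusted p = 1.00 by edgeR's quasi-likelihood test). A two-sided exact permutation test of the mean log2(CPM + 0.5) gave p = 0.0152 for a difference of -0.99, and an adjusted p of 0.182 over the 12 tests of both members. FABP4 was at -2.33, TRARG1 at -2.34, CIDEC at -2.14 and THRSP at -3.40 in the same comparison, all with an adjusted p of 1.00. The summed level of FABP4, TRARG1 and CIDEC ran from 5.70 to 83.0 CPM for the H-RFI class and from 1.37 to 13.6 CPM for the L-RFI class. With ALB as a covariate, ACSM1 was at -1.01 (edgeR adjusted p = 1.00), and with the summed adipocyte markers as a covariate it was at -1.23 (SE 0.53, edgeR adjusted p = 1.00).

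In ZG the sign for ACSM1 was the same in both breeds, with larger p-values. In CH-ZG the 8 H-RFI steers ran from 0.693 to 7.67 CPM (median 3.20 CPM) and the 9 L-RFI steers from 0.562 to 3.1 CPM (median 1.63 CPM). H-RFI steers held the 4 highest values, and the fit gave -1.08 (SE 0.47, edgeR adjusted p = 1.00), with p = 0.0810 in the exact permutation test. FABP4 stood at -2.14 and CIDEC at -2.29 there, neither called. With the summed adipocyte markers as a covariate ACSM1 in CH-ZG was at -0.36 (SE 0.45), and with ALB as a covariate it was at -0.74 (SE 0.44), both with an edgeR adjusted p of 1.00. In HF-ZG the 10 H-RFI steers ran from 1.17 to 112 CPM (median 7.42 CPM) and the 9 L-RFI steers from 1.04 to 15.1 CPM (median 6.43 CPM). The fit gave -1.01 (SE 0.68, edgeR adjusted p = 0.399), and without steer 5616, the library with 8576 CPM of ALB, it gave 0.04 (adjusted p = 0.968). That library was H-RFI and held the highest ACSM1 value. Its removal had to shrink the difference, so the value of 0.04 is not a test of it. With all kept libraries the HF-ZG difference was -0.48 with ALB as a covariate (edgeR adjusted p = 0.571) and -0.70 with the summed adipocyte markers (adjusted p = 0.411).

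SLC27A6 in HF-ZG was the largest RFI difference of that gene. The 10 H-RFI steers had 0.334, 1.30, 3.05, 4.43, 5.83, 8.78, 9.43, 10.5, 11.4 and 13.9 CPM, and the 9 L-RFI steers had 0.433, 0.614, 0.807, 1.21, 2.20, 2.76, 2.79, 4.46 and 5.20 CPM. The groups overlapped in their lower part, and 6 H-RFI steers lay above every L-RFI steer. L-RFI steers were 2.46-fold lower (log2 fold change -1.30, SE 0.44, unadjusted p = 0.00709, edgeR adjusted p = 0.381). The two-sided exact permutation test gave p = 0.0323 for a difference of -1.27, and an adjusted p of 0.194 over the 12 tests. The share of reads on no single gene had a median of 24.1% for the H-RFI class of HF-ZG and 20.6% for the L-RFI class, and with it as a covariate the difference was -0.69 (SE 0.38, adjusted p = 0.998). The 8 leukocyte markers summed to 5.10 to 203 CPM (median 35.2 CPM) in the H-RFI class and to 3.098 to 46.7 CPM (median 8.25 CPM) in the L-RFI class, and their part in the SLC27A6 difference was not tested.

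The remaining RFI values were small or mixed. For SLC27A6 the CH steers gave -0.22, 0.38 and 0.13 on the log2 scale in H1, ZG and H2, and the HF steers gave 0.38 in H1 and -0.75 in H2. ACSM1 was at 0.33 among CH steers in H1, and at -0.10 and 0.07 among HF steers in H1 and H2. Their 95% intervals all held 0, and the widest, for SLC27A6 in CH-H2, ran from -1.09 to 1.35, so changes of 2-fold in either direction were not excluded there. In CH-H2 the L-RFI steers of SLC27A6 fell apart, with 1844, 322 and 1316 between 8.09 and 9.46 CPM and the other 4 at or under 2.01 CPM. In CH-ZG the L-RFI steers 310, 318 and 1483 had 5.52 to 7.87 CPM and the other 6 had 2.45 CPM or less.

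**Figure D5:**
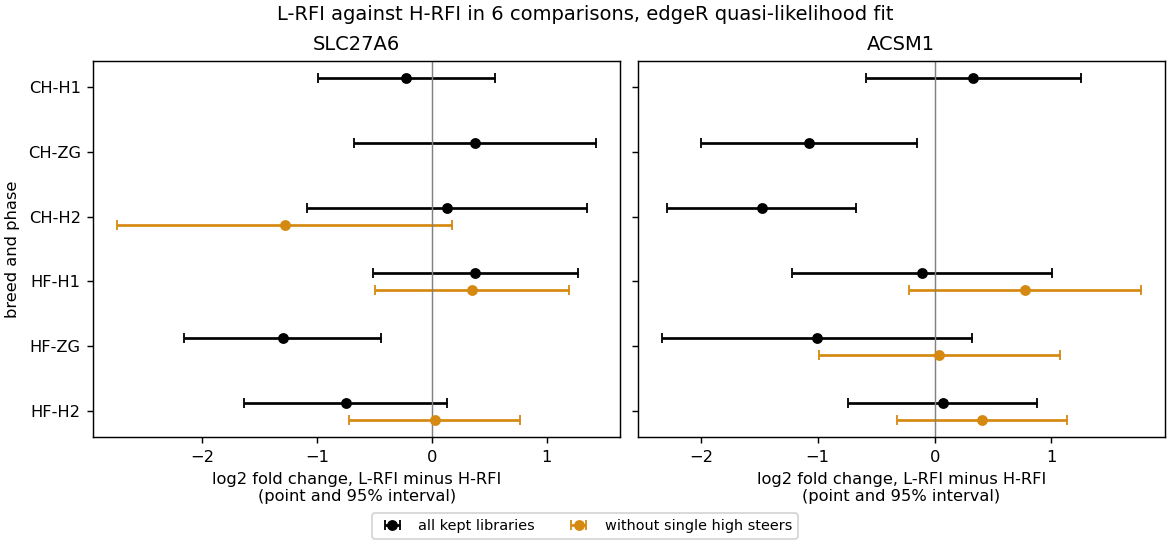
Log2 fold change of each gene, L-RFI minus H-RFI, in the 6 comparisons, with 95% intervals, from edgeR's quasi-likelihood fit of all kept libraries (black) and without the libraries at 4 times their group median or more (orange, where there were any and the gene passed the filter). The black intervals leave out 0 for SLC27A6 in HF-ZG and for ACSM1 in CH-ZG and CH-H2, and ACSM1 in HF-ZG moves to 0.04 without steer 5616.

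Nor was the RFI effect found to differ from one comparison to another. In 1 edgeR model of all kept libraries its test gave an adjusted p of 1.00 for both genes and called 0% of genes, with 146 at an unadjusted p under 0.05 and 0 called by limma voom. A common RFI effect was -0.24 for SLC27A6 (SE 0.22, edgeR adjusted p = 0.633) and -0.50 for ACSM1 (SE 0.24, unadjusted p = 0.0420, adjusted p = 0.608). This test called 0% of genes, with 627 (6.09%) at an unadjusted p under 0.05 and 0 called by limma voom. Without its 4 single high steers the common effect of ACSM1 was -0.08 (adjusted p = 0.918). Those libraries were picked by their ACSM1 level and were all H-RFI. Their removal had to shrink the difference, so this value is not a test of it. FABP4 was at -1.07 and THRSP at -1.13 in the same test, with an adjusted p of 0.608.

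Single high steers, defined as libraries at 4 times the group median or more, numbered 10 for SLC27A6 and 4 for ACSM1. Those of ACSM1 were all HF H-RFI libraries, namely steers 2069 and 5613 in H1, 5616 in ZG and 5588 in H2. For SLC27A6 they were 6 CH L-RFI libraries, 3 each in ZG and H2, and the HF libraries of steers 1811 (15.3 CPM) and 1877 (16.1 CPM) in H1 and 1639 (25.2 CPM) and 5588 (22.3 CPM) in H2. Steer 5588 in H2 was the only library high for both genes. The deviations of the genes from their group means had a Spearman's rho of -0.21 over the 104 libraries.

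SLC27A6 varied with a large share of the transcriptome. As deviations from the group means, 3257 of 10290 genes (31.7%) had a Spearman's rho above 0.5 with it and 2710 (26.3%) had one below -0.5, against the 121 and 0 genes of ACSM1. The 10 most similar genes, at 0.80 to 0.83, were all unnamed, led by ENSBTAG00000016709 and ENSBTAG00000009698, and the closest named gene was Pln, which encodes the calcium pump regulator phospholamban, at rank 67 (0.77). Its rho was 0.50 with the share of reads on no single gene, 0.25 with depth and 0.02 with ALB. So many genes moved with SLC27A6 that a high rho with it sets no gene apart.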

How the data were processed

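RNA of 111 muscle biopsies was sequenced by the authors, who trimmed the reads, aligned them with STAR 2.5.1 and counted them per gene. The deposited values are raw counts per Ensembl gene, neither normalized nor filtered, with unstranded, first-strand and reverse-strand counts side by side. The submitters' processing notes name UMD3.1 as the genome build and the study's methods ARS-UCD1.2, and which of them these counts rest on could not be settled. Only reverse-strand counts entered the fits, since a median of 99.0% of stranded reads lay on that strand. Libraries with under 1000000 reads on genes and the library of steer 571 in ZG were left out. The number of pairs of identical libraries was 0.

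CPM are counts per 1000000 reads on genes, without further scaling. RFI classes were compared within breed and phase by edgeR's quasi-likelihood test (TMM factors, after dropping genes that did not reach 1 CPM in 50% of the libraries). Breeds and phases were compared by limma voom on all kept libraries, with RFI as a term and steer as a block (consensus correlation 0.128), because 25 steers gave more than 1 library. Steers were paired by the number in the labels. Adjusted p-values are Benjamini-Hochberg over all genes tested. Intervals of 95% are normal intervals around the estimate. In edgeR's quasi-likelihood fits the SE was taken as the absolute log2 fold change over the square root of the F statistic. Those intervals are therefore approximate, and with few libraries they may be too narrow. Permutation tests used log2(CPM + 0.5). Intervals and floors of single libraries cover counting error only. Groups, breeds and phases were taken from the labels.

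The alternatives were edgeR's exact test, DESeq2, limma voom, RLE size factors, filterByExpr, no filter, unstranded counts, all deposited libraries, leaving out single high steers or each steer in turn, and fits with no block. Chosen after seeing the data were the mean of the phases, the permutation over steers, the covariate fits and leaving out the libraries rich in ALB. Named are the 2 members, their 10 most similar genes and the genes of fixed lists (fatty acid uptake and activation, mitochondrial entry, fat synthesis, and markers of fat, liver, muscle, endothelium, connective tissue, leukocytes and heart or epithelium). Names were taken from the study's supplementary list, so 151 genes had one. Of activation genes, ACSM1 alone was matched, 1 of 18. Among the lists of mitochondrial entry, myofibre, endothelial and fibroblast genes 0 were matched. The members and lists were chosen with earlier results of these data known, and CSRP3 was chosen after its values were seen. Tests on simulated data covered the RFI fits within breed and phase and, among the other fits, the contrast of CH against HF in ZG alone. Fits were made with edgeR 4.0.16, DESeq2 1.42.0 and limma 3.58.1 (R 4.3.3), and permutation tests and plots with scipy 1.17.1 and matplotlib 3.10.9 (Python 3.11.15).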

Additional observations from a re-analysis of the deposited data

Results flagged for a closer look

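ACSM1 of steer 5616 in HF-ZG H-RFI (112 CPM) and of steer 5588 in HF-H2 H-RFI (25.7 CPM) lay further from the rest of their group than Dixon's critical value allows. The next highest libraries of those groups had 15.8 and 10.3 CPM. Of 22 pairs of gene and group tested, 2 were marked, where chance marks about 1 in 20. Both libraries also held 1000 CPM of ALB or more, and the part of this in their ACSM1 level was not tested.

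The left-out library labelled steer 571 in CH-ZG H-RFI held 1547 CPM of ACSM1 and 46.7 CPM of SLC27A6, above every kept library for both genes.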

How the results depend on the processing

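Of 335 values of 38 results under the alternatives, 297 kept their side of the threshold and, where they had one, their direction. Most of these results were not called to begin with, so keeping their side of the threshold says little. Leaving out each steer in turn changed 0 of 208 RFI values across the threshold. No gene at all was called in these fits, so the unchanged calls say nothing about the members. On the log2 scale (L-RFI minus H-RFI) the ACSM1 values of CH steers ran from 0.00070 to 0.63 in H1, -1.26 to -0.77 in ZG and -1.61 to -1.28 in H2, and those of HF steers from -0.49 to 0.22, -1.22 to 0.0415 and -0.13 to 0.41. For SLC27A6 they ran from -0.43 to -0.05, 0.12 to 0.72, -0.16 to 0.47, 0.07 to 0.66, -1.58 to -1.15 and -0.96 to -0.44 in the same order. Without single high steers, SLC27A6 went to -1.28 in CH-H2 and 0.0252 in HF-H2 and ACSM1 to 0.77 in HF-H1 and 0.0415 in HF-ZG for RFI. SLC27A6 went to 0.0882 for ZG against H1 in HF, and was called lower in CH than HF in ZG (-1.07) and in ZG than H1 of CH (-1.27). Those libraries were picked by the gene's own level, so these shifts and calls carry no weight as tests. SLC27A6 in CH-ZG then fell under the filter and has no value. With all deposited libraries, SLC27A6 in CH-ZG went to -1.14 and ACSM1 in HF-H2 to -0.12 for RFI, ACSM1 to -0.32 for H2 against ZG in CH and 0.97 (not called) for H2 against H1 in HF, and its RFI effect was called different between comparisons (adjusted p = 0.00439), where the library of steer 571 is included. With no replicate block, ACSM1 was called lower in CH in ZG (voom -1.30, edgeR -1.82) and lost its call for H2 against H1 in HF (0.85 and 0.43). In edgeR, SLC27A6 went to -0.15 for CH against HF in H1 and 0.10 for H2 against H1 in CH, and ACSM1 to -0.50 for H2 against ZG in HF. With no filter, ACSM1 for H2 against H1 in HF was 0.90 and not called. With ALB as covariate, ACSM1 in CH-H1 went to -0.47 for RFI. With adipocyte markers as covariate, ACSM1 went to -0.40 for the breeds (not called), to -0.33 and -0.44 for H2 against ZG in CH and HF, to -0.17 for H2 against H1 in HF, and to 0.51 in HF-H1 and -0.0603 in HF-H2 for RFI. With the share of reads on no single gene as covariate, SLC27A6 went to 0.0220 for ZG against H1 in HF, and rose to 1.03 and 1.05 for H2 against ZG and H1 there, both called. Without the libraries rich in ALB, ACSM1 went to 0.22 in HF-H1 and 0.0415 in HF-ZG for RFI. Within steers sampled in both phases, SLC27A6 went to -0.28 for H2 against ZG in CH and -0.83 for H2 against H1 in HF. ACSM1 went to -0.00723 and -0.54 for ZG against H1 and H2 against ZG in CH, -0.14 for ZG against H1 in HF and 0.27 (not called) for H2 against H1 in HF. The causes were not tested. Over all genes, calls for CH against HF ranged from 5 to 38 in H1 (27 as reported), 4 to 797 in ZG (174) and 1 to 38 in H2 (23). Phase calls in CH ranged from 40 to 1415 for ZG against H1 (247), 49 to 114 for H2 against ZG (114) and 50 to 531 for H2 against H1 (280). In HF they ranged from 19 to 83 (71), 234 to 1439 (721) and 995 to 2288 (1677).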

Other observations

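In the 6 libraries left out for low depth, ACSM1 had 0 to 21 reads and SLC27A6 0 to 4 reads. ALB stood above 2000 CPM in 5 of these 6 libraries, and in the exception, steer 871 in CH-H2, it stood at 62.5 CPM.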
